A study of Mus musculus with 54 samples.

Results

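The response to mutant human SOD1 was compared between hypoglossal motor neurons (CN12), which drive the tongue from the brainstem, and lumbar spinal motor neurons (SC), which drive the hind limbs. The libraries were taken by nucleus, age and genotype, and 14 of the 54 libraries of the series belonged here. They came from SOD1G93A mice (mSOD), which carry a human SOD1 transgene with a substitution that causes familial amyotrophic lateral sclerosis (ALS), and from wild-type littermates (wt), all at P112, counted in days after birth, the symptomatic age of the design. CN12 had 3 mSOD and 3 wt libraries, and SC had 3 mSOD and 5 wt libraries, described in the design as biological replicates. Motor neurons were cut from tissue by laser capture and their polyadenylated RNA was amplified with Smart-seq2, a full-length method for small inputs. How many cells or animals went into each library is not given in the sources used here. The transgene is driven by the human SOD1 promoter and is active in most cells, so glia and interneurons of the mSOD mice carried it too.

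ALS kills motor neurons unequally. Spinal and hypoglossal motor neurons are both lost in this model, whereas eye-muscle motor neurons are largely spared, and within the spinal cord the fast-fatigable neurons fail first. A motor neuron whose axon is cut or retracts is known to switch on a regeneration programme led by Atf3, Jun and Sox11, with growth-cone genes such as Gap43 and Sprr1a and neuropeptides such as galanin. Misfolded protein and amino acid shortage act through another route, the integrated stress response, in which eIF2 alpha phosphorylation raises ATF4 and its target Ddit3 (CHOP).

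The 14 libraries held 1071477 to 4558906 counts, with a median of 3333163, and 18017 to 22972 mouse genes had at least 1 count. Human SOD1 took 6.13 to 7.63% of the counts in CN12 mSOD, 3.99 to 6.22% in SC mSOD, and at most 0.00222% in wt libraries, so every library matched its label. Lumbar Hox genes summed to 145 to 376 CPM (counts scaled to library size and composition) in SC and at most 0.939 CPM in CN12. Motor neuron genes such as Chat and Isl1 were read in all groups. Markers of other cells were not even across groups. The 6 interneuron markers summed to 47.1 to 485 CPM in SC wt, 202 to 677 in SC mSOD, 17.7 to 19.6 in CN12 wt and 3.29 to 5.59 in CN12 mSOD. The 15 microglial markers summed to 30.6 to 57.3 CPM in SC wt against 85.6 to 179 in SC mSOD, and to 38.4 to 49 in CN12 wt against 31 to 65.4 in CN12 mSOD. A large part of these sums was Apoe, which astrocytes also make. It read 7.43 to 42.7 CPM in SC wt and 33.4 to 106.6 in SC mSOD. In CN12 it read 23.5 to 36.2 CPM in wt and 14.3 to 28.4 in mSOD. Sequencing projects were crossed with genotype only in part: all CN12 wt libraries came from project P10814, CN12 mSOD replicate 3 and SC mSOD replicate 2 from P11355, which held no P112 wt library of either nucleus, and SC mSOD replicate 3 with SC wt replicates 3 to 5 from P6362. Project was therefore a covariate of the fit. In such bulk samples, fewer cells of a type and less RNA per cell cannot be told apart.

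A small set of genes rose in both nuclei, led by S100a11, Sprr1a and Cd63. The tests of single nuclei called 51 genes lower in SC and 0 in CN12, and the mean of the effects called 14 lower. With the quasi-likelihood F test of edgeR on 18493 mouse genes, 13 passed an adjusted p of 0.05 in CN12 (0.0703% of genes), all of them higher in mSOD. In SC 87 passed (0.47%), 36 higher and 51 lower. At an unadjusted p under 0.05 the counts were 810 in CN12 (4.38%) and 1825 in SC (9.87%). The genes called in both nuclei numbered 8, all higher in mSOD in both. A test of the mean of the 2 effects called 54 genes (0.292%), 40 higher and 14 lower, and 23 of them had passed in neither nucleus alone. At an unadjusted p under 0.05 the mean effect was past that level in 7.46% of all genes, with 4.21% lower. A test of the difference between the 2 effects called 9 genes (0.0487%), with 1153 at an unadjusted p under 0.05 (6.23%).

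All 13 genes called in CN12 were also higher in SC mSOD, and in 9 of them no SC mSOD library overlapped a wt library, where 2.18% of all genes did so in that direction. Of the 13, 4 were pseudogene copies of S100a11 or Cd63, whose reads could belong to those genes, so the 13 are not all separate. Of the 36 genes raised in SC, 25 were higher in CN12 mSOD, and in 17 of the 36 (47.2%) no CN12 library overlapped, against 4.81% of all genes. The 36 include the 8 called in both nuclei. Of the 28 not called in CN12, 17 (60.7%) were higher in CN12 mSOD. Among all genes with a positive SC change the share was 51.7%. In 9 of the 28 (32.1%) no CN12 library overlapped, and their median CN12 change was 0.09. Of the 51 genes lowered in SC, 31 were lower in CN12 mSOD, and 6 (11.8%) did not overlap, against 4.76% of all genes. The median log2 change of those 51 genes was -1.59 in SC, the contrast that chose them, and -0.13 in CN12. Over all genes the 2 effects had the same sign in 53.7%, with a Pearson correlation of 0.171 and a Spearman correlation of 0.0934 over 18493 genes, which are not independent replicates. The nuclei had separate control libraries. Whether libraries of the 2 nuclei came from the same animals is not given in the sources used here, and the fit held no term for animal. Leaving out a library moved the SC count to 20 (SC mSOD replicate 3), 34 (SC wt replicate 2), 48 (SC wt replicate 3) or 174 (SC wt replicate 1), the CN12 count to 4 (CN12 wt replicate 2), 6 (CN12 wt replicate 1) or 8 (CN12 wt replicate 3), and the mean count to 24 (SC mSOD replicate 1), 34 (CN12 mSOD replicate 2) or 35 (CN12 wt replicate 3). The count in both nuclei moved to 3 (SC mSOD replicate 1), 4 (CN12 wt replicate 2) or 5 (CN12 wt replicate 1 or SC wt replicate 2). P-values rest on the spread between libraries within groups, estimated over all 54 libraries of the series and not over these 14 alone.

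**Figure D1:**
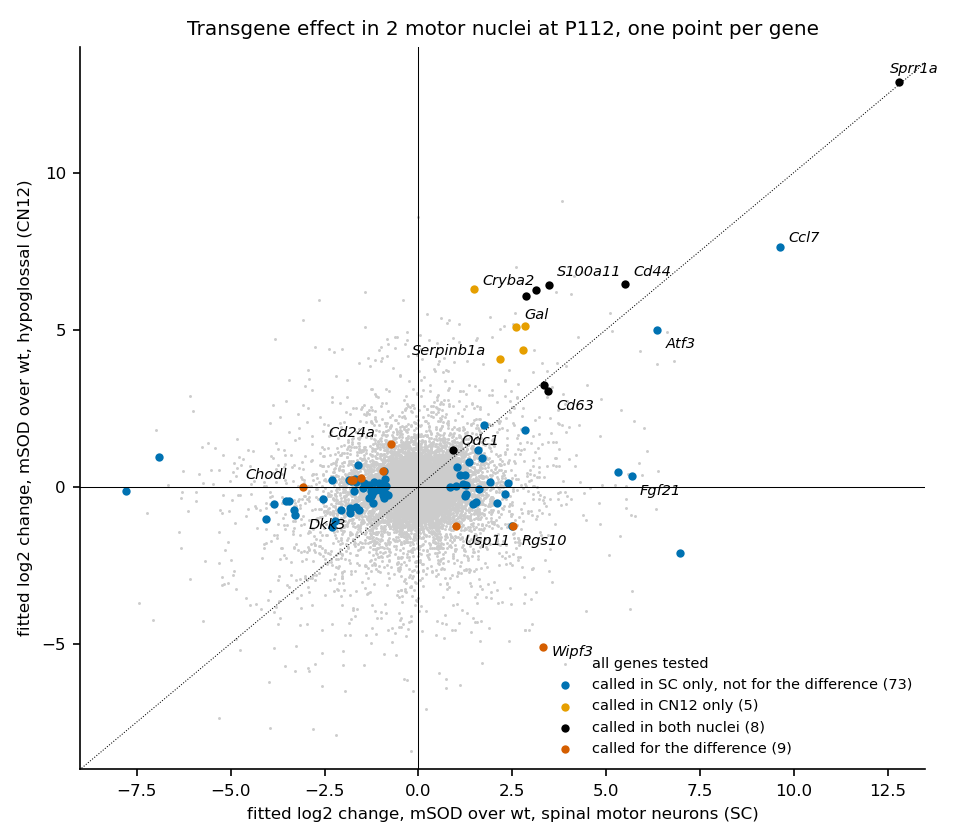
Fitted log2 change of each of 18493 genes in SC (horizontal axis) and CN12 (vertical axis), mSOD over wt at P112; the dotted line marks equal changes. The 8 genes called in both nuclei (black) lie in the upper right, the genes called in SC alone (blue) lie on both sides of 0 on the CN12 axis, and the 9 genes called for the difference (red) lie off the dotted line.

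The 5 protein-coding genes that, with their near-identical copies, made up the response called in both nuclei were S100a11, Sprr1a, Cd44, Cd63 and Odc1. S100a11, a calcium-binding S100 protein, read 0.276, 1.65 and 0.601 CPM in CN12 wt and 50.5, 91.3 and 135 CPM in CN12 mSOD. It read 3.4, 0.236, 0, 4.33 and 0 CPM in SC wt and 39.8, 25.3 and 12.4 CPM in SC mSOD. No mSOD library of either nucleus overlapped its controls. The log2 change was 6.43 ± 0.65 (adjusted p = 1.59e-08) in CN12 and 3.48 ± 0.55 (adjusted p = 0.000307) in SC, each given ± SE. The CN12 change minus the SC change was 2.95 ± 0.93 (SE), which did not pass over all genes (adjusted p = 0.401, unadjusted p = 0.00279).

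Sprr1a, a small proline-rich protein of injured sensory and motor neurons, was read at almost nothing in controls. It stood at 0, 0.207 and 0 CPM in CN12 wt and 436, 988 and 686 CPM in CN12 mSOD, and 0, 0, 0.888, 0 and 0 CPM in SC wt and 802, 486 and 99.6 CPM in SC mSOD. The controls of each nucleus held 1 count in all, and the ratio of mSOD to wt was 8660 (95% counting interval 1550 to 342000) in CN12 and 6760 (95% counting interval 1210 to 267000) in SC. These intervals cover counting error only. SC mSOD replicate 3 was the lowest mSOD library in each of S100a11, Sprr1a, Cd44 and Cd63. Cd44, a hyaluronan receptor, read 0, 0.207 and 0.3 CPM in CN12 wt and 6.82, 13.8 and 49.9 CPM in CN12 mSOD, and 0.928, 0, 0, 0 and 0 CPM in SC wt and 30.2, 24.6 and 1.01 CPM in SC mSOD. SC mSOD replicate 3 held 3 counts of Cd44, and the 5 SC controls held 3 counts in all. The SC call of Cd44 was lost when SC mSOD replicate 1 or SC wt replicate 2 was left out, with an adjusted p of up to 0.188, and its CN12 call when CN12 mSOD replicate 3 or CN12 wt replicates 1, 2 or 3 was left out, with up to 0.217.

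Cd63, a tetraspanin of late endosomes and exosomes, read 6.91, 4.55 and 5.71 CPM in CN12 wt and 31, 42 and 55.4 CPM in CN12 mSOD, and 5.88, 2.13, 3.55, 3.72 and 6.04 CPM in SC wt and 111.5, 26.9 and 23.2 CPM in SC mSOD. All 3 mSOD libraries lay above all controls in each nucleus, with log2 changes of 3.04 ± 0.59 (adjusted p = 0.0116) and 3.46 ± 0.54 (adjusted p = 0.000191). Its CN12 call was lost without CN12 wt replicates 1, 2 or 3 (adjusted p up to 0.217). Odc1, ornithine decarboxylase, makes putrescine at the start of polyamine synthesis. It moved less and more evenly, from 45.9, 34.1 and 41.1 to 84.6, 93.2 and 73.9 CPM in CN12 and from 56.9, 59.4, 72, 62.9 and 70.6 to 134, 94.4 and 97.2 CPM in SC. The difference between the nuclei in Odc1 was 0.27 ± 0.28 (SE), with a 95% interval of -0.29 to 0.82 on the log2 scale. Its CN12 call was lost without CN12 wt replicate 2 and its SC call without SC mSOD replicate 1. Among the 11 polyamine genes Odc1 was the sole member called for the mean effect (0.216% of all genes were called higher), and 2 of them, Amd1 and Sms, were lower in SC at an unadjusted p under 0.05 (5.08% of all genes).

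Copies of these genes counted as genes of their own. In the GENCODE M21 transcripts the pseudogene Gm12854 matched S100a11 over 297 bases with 3 mismatches, Gm7665 over the same 297 bases with 4, and Gm29240 over 286 bases with 22. Cd63-ps matched Cd63 over 858 bases with 17 mismatches. Reads from such stretches could be placed on either copy, so values of the copies are uncertain, and 4 of the 13 genes called in CN12 were such pseudogenes. Gm6767 and Gm9512, called for the mean effect, were 96 and 97% identical to Eef1a1, a translation elongation factor called with them.

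**Figure D2:**
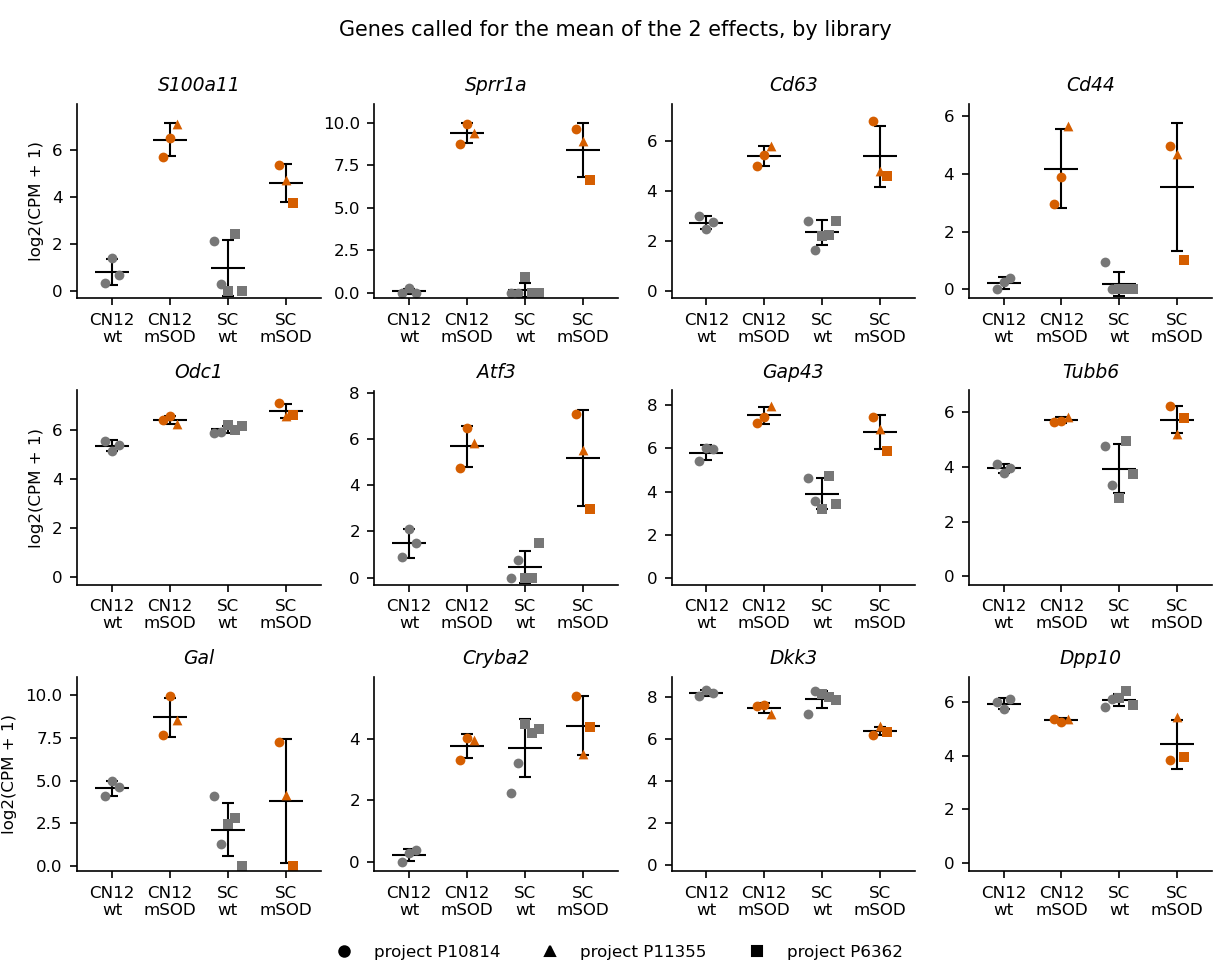
log2(CPM + 1) of 12 genes called for the mean of the 2 effects, in the 14 libraries (grey wt, orange mSOD; the shape gives the sequencing project; bars are the mean and SD over libraries). In the first 8 genes and in Dkk3 and Dpp10 the mSOD libraries lie on the same side of the controls in both nuclei, whereas the SC libraries of Gal and Cryba2 overlap. Lack of overlap was a condition for naming some of these genes, so nothing is read from it.

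Several genes of the axon injury programme were higher for the mean of both nuclei. Atf3, the transcription factor that marks axotomised motor neurons, read 0.829, 3.31 and 1.8 CPM in CN12 wt and 25.6, 88.8 and 55.9 CPM in CN12 mSOD, and 0, 0.71, 0, 0 and 1.86 CPM in SC wt and 134, 45.5 and 6.73 CPM in SC mSOD. It passed in SC (6.36 ± 1.34, adjusted p = 0.0147) and for the mean effect (5.68 ± 0.90, adjusted p = 0.000347), and in CN12 the change of 5.00 ± 1.18 (SE) had an adjusted p of 0.122 while its libraries did not overlap. Gap43, a growth-cone protein, read 40.9, 63.7 and 61.9 CPM in CN12 wt and 141, 175 and 245 CPM in CN12 mSOD, and 23.5, 10.6, 8, 25.1 and 9.75 CPM in SC wt and 172, 118 and 57.9 CPM in SC mSOD, a mean effect of 2.33 ± 0.31 (adjusted p = 6.58e-06). The starting level was lower in SC, where 5 controls read 8 to 25.1 CPM against 40.9 to 63.7 in CN12. Tubb6, a beta-tubulin isotype, rose for the mean effect by 1.85 ± 0.30 (adjusted p = 0.000202), and Sox11, a transcription factor of axon growth, by 1.30 ± 0.28 (adjusted p = 0.0169). The mean call of Sox11 was lost without CN12 mSOD replicate 2, CN12 wt replicates 1 or 2, SC mSOD replicate 1 or SC wt replicate 2 (adjusted p up to 0.269), and the SC call of Atf3 without SC mSOD replicate 1 or SC wt replicates 1 or 2 (up to 0.15). Of the 13 growth-associated effectors tested, 5 were called for the mean effect, all higher (0.216% of all genes were called higher): Sprr1a, Gap43, Cd44, Itga7, a laminin receptor subunit, and Gadd45a, a stress sensor. The mean call of Itga7 was lost without SC mSOD replicate 1, and that of Gadd45a without CN12 mSOD replicate 2, CN12 wt replicate 3 or SC mSOD replicate 1. Of 15 injury transcription factors 2 were called, Atf3 and Sox11. As a list they were even in SC, with 7 of 15 above 0 (48.6% of all genes) and a median of -0.04. In CN12 10 of 15 were above 0 (47.9% of all genes), with a median of 0.44. The growth-associated effectors were above 0 in 8 of 13 in SC (median 0.08) and in 11 of 13 in CN12 (median 0.66). Jun, a dimer partner of Atf3, read 48.9, 37.6 and 43.3 CPM in CN12 wt and 50.8, 60.8 and 57.1 CPM in CN12 mSOD, and 15.5, 28.1, 34.6, 33.1 and 40.9 CPM in SC wt and 77.9, 42.7 and 69 CPM in SC mSOD. Its mSOD libraries lay above all controls in each nucleus, with log2 changes of 0.33 ± 0.37 (adjusted p = 1) in CN12, 1.09 ± 0.33 (adjusted p = 0.153) in SC and 0.71 ± 0.25 (adjusted p = 0.38) for the mean, none of which passed.

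Promoter sequences of 4 genes are shown because they carry the binding letters of factors named above: AP-1, bound by Jun family and ATF3 dimers, and the CARE element, bound by ATF4 with C/EBP partners. Each is the 250 bases before the gene start in RefSeq GRCm38.p6, read 5′ to 3′ on the gene's strand, with motif matches in capitals (AP-1 TGACTCA or its complement TGAGTCA, CARE TGATGCAA or its complement TTGCATCA).
Sprr1a, chr3:92485882-92486131, minus strand: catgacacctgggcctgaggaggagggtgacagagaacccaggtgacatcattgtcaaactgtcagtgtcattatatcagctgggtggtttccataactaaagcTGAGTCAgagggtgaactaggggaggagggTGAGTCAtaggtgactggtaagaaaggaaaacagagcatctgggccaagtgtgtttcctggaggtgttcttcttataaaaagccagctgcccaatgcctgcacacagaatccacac
S100a11, chr3:93520246-93520495, plus strand: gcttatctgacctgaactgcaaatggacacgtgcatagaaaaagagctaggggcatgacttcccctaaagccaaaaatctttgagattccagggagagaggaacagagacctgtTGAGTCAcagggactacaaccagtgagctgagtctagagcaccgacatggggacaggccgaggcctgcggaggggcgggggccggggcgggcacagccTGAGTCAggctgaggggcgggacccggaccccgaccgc
Atf3, chr1:191183334-191183583, minus strand: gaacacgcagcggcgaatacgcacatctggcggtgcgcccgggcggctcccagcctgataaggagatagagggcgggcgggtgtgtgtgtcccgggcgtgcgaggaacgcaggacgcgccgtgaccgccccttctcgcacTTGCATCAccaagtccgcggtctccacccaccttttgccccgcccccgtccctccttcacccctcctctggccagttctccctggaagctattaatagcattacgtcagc
Fgf21, chr7:45615491-45615740, minus strand: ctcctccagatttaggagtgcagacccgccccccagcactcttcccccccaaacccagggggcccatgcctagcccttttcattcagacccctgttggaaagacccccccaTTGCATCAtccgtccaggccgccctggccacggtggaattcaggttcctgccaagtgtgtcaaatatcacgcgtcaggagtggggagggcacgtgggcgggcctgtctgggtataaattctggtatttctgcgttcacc
Sprr1a held 2 AP-1 matches, starting 146 and 116 bases before the gene start, and S100a11 held 2, at 136 and 38. Atf3 and Fgf21 each held 1 CARE match, at 110 and 139. Of the 40 genes called higher for the mean effect, 25 had a promoter in the table, and 4 of these (16%) held AP-1: Cryba2, S100a11, Sprr1a and Srxn1. Among 11295 tested genes with a promoter the share was 4%. Of the 36 genes called higher in SC, 22 had a promoter and 2 (9.09%) held CARE, Atf3 and Fgf21, against 0.637% of tested genes. None of the 7 difference genes with a promoter held AP-1, CARE or the CRE letters TGACGTCA in this window. These matches describe letters and not occupied sites, and the counts are on another build, so no position was carried over.

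A lysosomal protease and a signalling gene were called with them. Ctsb, the lysosomal protease cathepsin B, read 482, 470.3 and 448 CPM in CN12 wt and 794, 745 and 733 CPM in CN12 mSOD, and 559, 497, 492, 648 and 509 CPM in SC wt and 922, 774 and 776 CPM in SC mSOD, with no overlap in either nucleus and a mean effect of 0.65 ± 0.12 (adjusted p = 0.00272), which was not called without SC mSOD replicate 1 (adjusted p = 0.0846). Of 19 tetraspanin and lysosomal genes, 2 were called for the mean effect (0.216% of all genes were called higher). At an unadjusted p under 0.05, 6 were higher, where 3.25% of all genes were. Rasgrf2, a Ras and Rac exchange factor, rose by 1.07 ± 0.20 (adjusted p = 0.00247) for the mean effect (not called without SC mSOD replicate 1), with SC mSOD libraries at 115, 87.9 and 94.9 CPM over controls at 45.2, 19.2, 32.9, 44.9 and 46.4. Ngfr, the p75 neurotrophin receptor, was the sole member of 12 trophic receptors called for the mean effect (0.216% of all genes were called higher). It read 0, 0.827 and 0 CPM in CN12 wt and 2.046, 6.58 and 7.78 CPM in CN12 mSOD, and 1.86, 0, 0, 0 and 0 CPM in SC wt and 11.5, 9.97 and 2.35 CPM in SC mSOD, and the call was lost in 10 of the 14 fits that left out a library. Ccl7, a monocyte-attracting chemokine that the naming rule did not pick and that was chosen after its values were seen, was at 0 in all 8 controls. Its mSOD libraries read 0.341, 8.22 and 12.4 CPM in CN12 and 52.7, 24.1 and 12.4 CPM in SC, at least 30.2-fold and 141-fold above a floor of 3 counts over the control group.

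In CN12 5 genes passed that did not pass in SC: Gal, Cryba2, Gm29240, Serpinb1a and Rhoc. None of them was called for the difference between the nuclei. Gal, the neuropeptide galanin, read 15.8, 29.8 and 23.4 CPM in CN12 wt and 198, 981 and 368 CPM in CN12 mSOD, and 16.4, 1.42, 4.44, 5.88 and 0 CPM in SC wt and 149, 16.7 and 0 CPM in SC mSOD. SC mSOD replicate 1 exceeded all controls of both nuclei, replicate 2 lay just above the highest SC control, and replicate 3 was at 0. The CN12 change was 5.07 ± 0.88 (adjusted p = 0.00457), the SC change 2.60 ± 0.91 (adjusted p = 0.285), and the difference 2.47 ± 1.18 (adjusted p = 0.785). Its CN12 call was lost without CN12 mSOD replicate 2 or CN12 wt replicates 1, 2 or 3 (adjusted p up to 0.133) and within P10814 alone (0.53). Among 19 neuropeptides and secreted signals it was the sole member called. Of all genes, 0.0703% were called in CN12 and 0.216% were called higher for the mean effect.

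Cryba2 differed between the nuclei already in the controls. This beta-crystallin gene read 0, 0.207 and 0.3 CPM in CN12 wt but 3.71, 8.28, 21.3, 17 and 19 CPM in SC wt. In mSOD it read 8.87, 15.3 and 14.3 CPM in CN12 and 40.9, 10.2 and 19.9 CPM in SC, so the CN12 mSOD libraries lay within the range of the SC controls. The CN12 effect was 6.29 ± 1.14 (adjusted p = 0.00473) and the SC effect 1.49 ± 0.70 (adjusted p = 0.466), a difference of 4.79 ± 1.39 (SE) with an adjusted p of 0.317. Serpinb1a, an inhibitor of granulocyte proteases, and Rhoc, a small GTPase, were both also called for the mean effect (3.11 ± 0.56, adjusted p = 0.00105, and 3.57 ± 0.60, adjusted p = 0.000371). The CN12 call of Serpinb1a was lost without CN12 mSOD replicates 2 or 3 or CN12 wt replicates 1, 2 or 3 (adjusted p up to 0.428), that of Rhoc without CN12 mSOD replicates 2 or 3, CN12 wt replicates 2 or 3 or SC mSOD replicate 2 (up to 0.634), and that of Cryba2 without CN12 wt replicates 1 or 2 (up to 0.095). The mean call of Rhoc was lost without SC mSOD replicate 1.

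Dkk3 and Dpp10 fell for the mean of both nuclei. Dkk3, a secreted Dickkopf-family protein, read 257, 318 and 285 CPM in CN12 wt and 186, 194 and 142 CPM in CN12 mSOD, and 142, 305, 275, 247 and 227 CPM in SC wt and 71.4, 94.4 and 78.7 CPM in SC mSOD. Dpp10, a subunit that shapes Kv4 potassium currents, read 62.4, 52.3 and 68.2 CPM in CN12 wt and 40.6, 37.3 and 40.1 CPM in CN12 mSOD, and 56, 67.9, 70.2, 83.3 and 58.5 CPM in SC wt and 13.4, 42.9 and 14.5 CPM in SC mSOD. In neither gene did mSOD and wt libraries overlap, a condition of the rule that named them, so nothing is read from it. Their mean effects were -1.17 ± 0.19 (adjusted p = 0.000253) and -1.33 ± 0.22 (adjusted p = 0.000393). The fitted fall was larger in SC, with a CN12 change minus SC change of 0.84 ± 0.35 (SE) for Dkk3 and 0.98 ± 0.41 (SE) for Dpp10, and neither difference passed (adjusted p = 0.721 for each). Rimbp2, which ties calcium channels to release sites, had a mean effect of -0.81 ± 0.17 (adjusted p = 0.0132), with CN12 libraries at 26.5, 25 and 20.4 CPM in wt and 13, 15.5 and 17 in mSOD. The Rimbp2 call was lost without CN12 mSOD replicate 1, CN12 wt replicate 1 or SC mSOD replicate 1 (adjusted p up to 0.11) and within P10814 (0.133). In all, 14 genes were called lower for the mean effect (0.0757%). In 4 of them no library overlapped in either nucleus (0.211% of all genes), from which nothing is read, since these libraries made the call.

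The test of the difference itself called 9 genes, of which 6 had a more positive effect in CN12 (0.0324% of all genes) and 3 in SC (0.0162%). In 8 of the 9 the 2 effects had opposite signs. None was called in CN12 alone, and 6 were called in SC. The first group, lower in SC mSOD and near the controls or higher in CN12 mSOD, included Hpcal1, Rab3b, Chodl, Cyp51 and Cd24a. Rgs10, Wipf3 and Usp11 went the other way.

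Hpcal1, a neuronal calcium sensor, read 59.7, 56.2 and 64.9 CPM in CN12 wt and 69.6, 62.5 and 77.1 CPM in CN12 mSOD, and 154, 228, 314, 202 and 222 CPM in SC wt and 72.5, 53.1 and 82.4 CPM in SC mSOD. SC mSOD lay below all SC controls, and the CN12 groups overlapped. The difference was 1.80 ± 0.31 (adjusted p = 0.00541). Rab3b, a vesicle GTPase of regulated secretion, read 249, 253 and 304 CPM in CN12 wt and 354, 252 and 197 CPM in CN12 mSOD, and 184, 385, 376, 297 and 327 CPM in SC wt and 132, 73.3 and 38.7 CPM in SC mSOD, with a difference of 1.98 ± 0.38 (adjusted p = 0.0258). All SC mSOD libraries of Rab3b lay below the controls of both nuclei, and the CN12 groups overlapped.

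Chodl, chondrolectin, marks fast motor neurons. It read 266, 209 and 234 CPM in CN12 wt and 183, 239 and 412 CPM in CN12 mSOD, and 242, 526, 781, 598 and 580.5 CPM in SC wt and 82.4, 88.8 and 28.3 CPM in SC mSOD. The SC effect was -3.06 ± 0.47 (adjusted p = 0.000263), the CN12 effect -0.03 ± 0.46 (SE), and the difference 3.03 ± 0.63 (adjusted p = 0.0436). Mmp9, a matrix protease of fast-fatigable motor neurons, showed the same order. It read 16.6, 23.8 and 25.8 CPM in CN12 wt and 39.2, 37.6 and 18.2 CPM in CN12 mSOD, and 56, 111.6, 123, 78.3 and 89.2 CPM in SC wt and 35.6, 25.3 and 15.5 CPM in SC mSOD, and its difference of 2.31 ± 0.53 (SE) had an adjusted p of 0.087. Of the 12 fast, slow and gamma motor neuron genes these 2 were the ones called lower in SC (0.276% of all genes), and none was called in CN12. The list as a whole was even in SC, with 6 of 12 above 0 (48.6% of all genes) and a median of -0.02. At an unadjusted p under 0.05, 2 were higher in SC (4.79% of all genes) and 2 lower (5.08%). The SC call of Mmp9 was lost without SC mSOD replicates 1 or 3 or SC wt replicates 2 or 3 (adjusted p up to 0.637). Of the 12 motor neuron identity genes, 6 were lower in SC at an unadjusted p under 0.05 (5.08% of all genes), among them Isl1 (-1.57 ± 0.44 SE) and Chat (-0.45 ± 0.22 SE), and 0 in CN12. None of the 12 passed adjustment in either nucleus.

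Cd24a, a glycosylphosphatidylinositol-anchored adhesion protein, went in CN12 from 222, 169.9 and 218 CPM to 454, 483 and 909 CPM, though not past adjustment there (adjusted p = 0.0929). In SC it read 318, 793, 832, 1022 and 724 CPM in SC wt and 500, 338 and 490.5 CPM in SC mSOD, with overlap. The difference was 2.09 ± 0.42 (adjusted p = 0.0306). Controls of SC were above controls of CN12 in every library, and the mSOD libraries of the 2 nuclei overlapped.

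Rgs10, a regulator that switches off G protein signalling, went the other way. It read 14.4, 12.4 and 9.91 CPM in CN12 wt and 5.8, 4.7 and 4.38 CPM in CN12 mSOD, and 5.57, 3.08, 0, 0.929 and 0.464 CPM in SC wt and 7.56, 16.5 and 15.5 CPM in SC mSOD. All mSOD libraries lay below the controls in CN12 and above them in SC, with effects of -1.25 ± 0.47 (SE) and 2.52 ± 0.48 (SE) and a difference of -3.78 ± 0.63 (adjusted p = 0.00453). Usp11, a deubiquitinase, likewise read 28.7, 23.6 and 19.5 CPM in CN12 wt and 8.53, 15.7 and 9.97 CPM in CN12 mSOD, and 4.64, 4.26, 7.11, 6.5 and 5.11 CPM in SC wt and 7.56, 15.5 and 14.8 CPM in SC mSOD, a difference of -2.24 ± 0.47 (adjusted p = 0.0371). Wipf3, an actin regulator of the WIP family, was near the detection limit. It had 16 counts over the 3 CN12 controls and 0 in CN12 mSOD, at least 5.12-fold lower against a floor of 3 counts over the group. In SC it read 5.26, 0.473, 0, 0 and 0 CPM in SC wt and 6.44, 9.04 and 8.07 CPM in SC mSOD, and its difference had an adjusted p of 0.0306.

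These differences rested on few libraries. Without SC mSOD replicate 3 none of the 9 was called by edgeR, with 606 genes at an unadjusted p under 0.05 in place of 1153. The same count fell to 0 without the 2 P11355 libraries (1216 at an unadjusted p under 0.05) and to 1 when only the 14 libraries were fitted. It fell to 1 without CN12 wt replicate 2 or SC wt replicate 2, to 2 without CN12 wt replicate 1 or CN12 mSOD replicate 1, to 4 without CN12 mSOD replicate 3 or SC wt replicate 5, and to 5 without SC wt replicate 4. It rose to 41 without SC mSOD replicate 1 and to 30 without SC wt replicate 1, and all 9 genes were kept in both. Within P10814, which left 1 SC mSOD library, 0 were called and 784 had an unadjusted p under 0.05. SC wt replicate 1 had the highest Wipf3 (5.26 CPM) and Rgs10 (5.57 CPM) and the lowest Hpcal1, Rab3b and Chodl of the 5 SC controls. It also had the highest interneuron sum of them, 485 CPM, of which Slc17a6, the vesicular glutamate transporter of excitatory interneurons, gave 162. The larger part came from other markers of the list, with Slc6a5 at 275 and Slc32a1 at 44.9 CPM. In SC mSOD Slc17a6 read 40.1, 298 and 179 CPM, in the other 4 SC controls 0 to 20.8 CPM, and in CN12 8.41 to 16.3 CPM in wt against 1.41 to 2.19 CPM in mSOD. Of the 6 interneuron markers 3 were higher in SC mSOD at an unadjusted p under 0.05 (4.79% of all genes) and none was called. Their part in the differences was not tested.

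**Figure D3:**
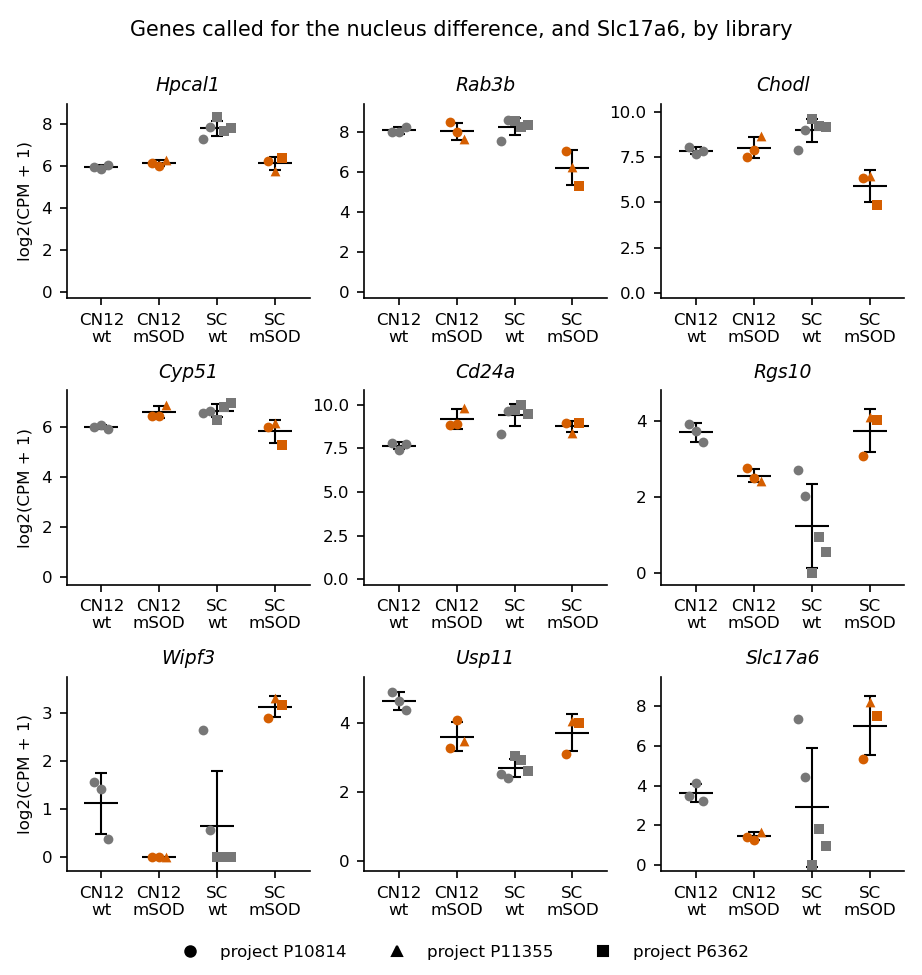
log2(CPM + 1) of 8 of the 9 genes called for the difference between nuclei, and of the interneuron marker Slc17a6, in the 14 libraries (grey wt, orange mSOD; the shape gives the project; bars are the mean and SD). Hpcal1, Rab3b, Chodl and Cyp51 are lower in SC mSOD than in SC wt, Rgs10, Wipf3 and Usp11 are higher, and Slc17a6 is high in SC mSOD and in SC wt replicate 1.

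Cyp51, the lanosterol demethylase of cholesterol synthesis, was 1 of the 9. It read 64.1, 67.6 and 60.4 CPM in CN12 wt and 88, 87.8 and 117 CPM in CN12 mSOD, and 95.9, 99.8, 78.2, 113 and 125 CPM in SC wt and 64.4, 72.3 and 38.7 CPM in SC mSOD, so that mSOD lay above all controls in CN12 and below all controls in SC. The difference was 1.43 ± 0.29 (adjusted p = 0.0306). A list of 21 sterol synthesis and uptake genes, drawn up after the value of Cyp51 had been seen, held genes from Hmgcs1, at the entry of the pathway, to Dhcr7, near its end, with the sterol sensor Insig1. In CN12 the fitted change was above 0 in 21 of 21, with a median of 0.65, and 14 had an unadjusted p under 0.05 in that direction, where 2.25% of all genes did. In SC it was above 0 in 0 of 21, with a median of -0.50, and 10 were lower at an unadjusted p under 0.05, against 5.08% of all genes. The medians of all genes were -0.02 in CN12 and -0.01 in SC.

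Single sterol genes mostly missed adjustment. None was called in CN12, and 3 were called in SC, all lower (0.276% of all genes were called lower): Cyp51 (-0.93 ± 0.20, adjusted p = 0.0147), the sterol reductase Hsd17b7 (-1.19 ± 0.25, adjusted p = 0.0131) and the decarboxylase Nsdhl (-0.92 ± 0.22, adjusted p = 0.0399). The difference was above 0 in all 21 (50.1% of all genes). With all 21 above 0 in CN12 and none above 0 in SC, this count was fixed, so nothing further is read from it. The median difference was 1.29 against 0.0007 over all genes. An unadjusted p under 0.05 was found in 18 (3.02% of all genes in that direction), of which Cyp51 alone passed. Without SC mSOD replicate 3 none of these SC calls was left, and without SC wt replicate 2 there was 1. Hmgcs1 read 142, 86.6 and 149 CPM in CN12 wt and 139.8, 202 and 302 CPM in CN12 mSOD, and 202, 217, 197, 226 and 251 CPM in SC wt and 147, 151 and 132 CPM in SC mSOD. Its CN12 libraries overlapped, since CN12 mSOD replicate 1 lay within the controls, and its SC libraries did not. Apart from Cyp51, these genes were named after their values were seen.

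Averaged over the 21 genes, log2 CPM was 5.73, 5.49 and 5.69 in CN12 wt and 6.14, 6.42 and 6.27 in CN12 mSOD. In SC it was 6.03, 6.09, 6.04, 6.30 and 6.33 in wt and 5.79, 5.59 and 5.35 in mSOD. The groups did not overlap in either nucleus. In controls the SC mean was above the CN12 mean in 19 of the 21 genes, with a median gap of 0.62 on the log2 scale. In mSOD it was above in 2 of 21, with a median gap of -0.77. Over all 18493 genes it was above in 8567 in wt and 9022 in mSOD. These gaps give the contrast above as levels, without adjustment for project, so nothing further is read from them. The difference stayed above 0 in 21 of 21 genes in every alternative fit and with each library left out, except within P10814 alone, where it was 20 of 21 with a median of 0.96. In CN12, 19 of 21 were above 0 without CN12 wt replicate 2, and 20 without CN12 wt replicate 3 or CN12 mSOD replicate 2. In SC, within P10814, with 1 SC mSOD library, 5 of 21 were above 0, and without SC mSOD replicate 3, 3 of 21. Oligodendrocyte markers, of a cell type rich in sterol synthesis, summed to 275 to 326 CPM in CN12 wt against 163 to 273 in CN12 mSOD, and to 250 to 830.3 in SC wt against 383 to 726 in SC mSOD. The CN12 ranges came close, at 273 against 275 CPM, and the SC ranges overlapped. The interneuron sums given above were lower in CN12 mSOD, without overlap, where the sterol genes were higher, and ran higher in SC mSOD, with overlap, where the sterol genes were lower. The part of either cell type in the sterol values was not tested.

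**Figure D4:**
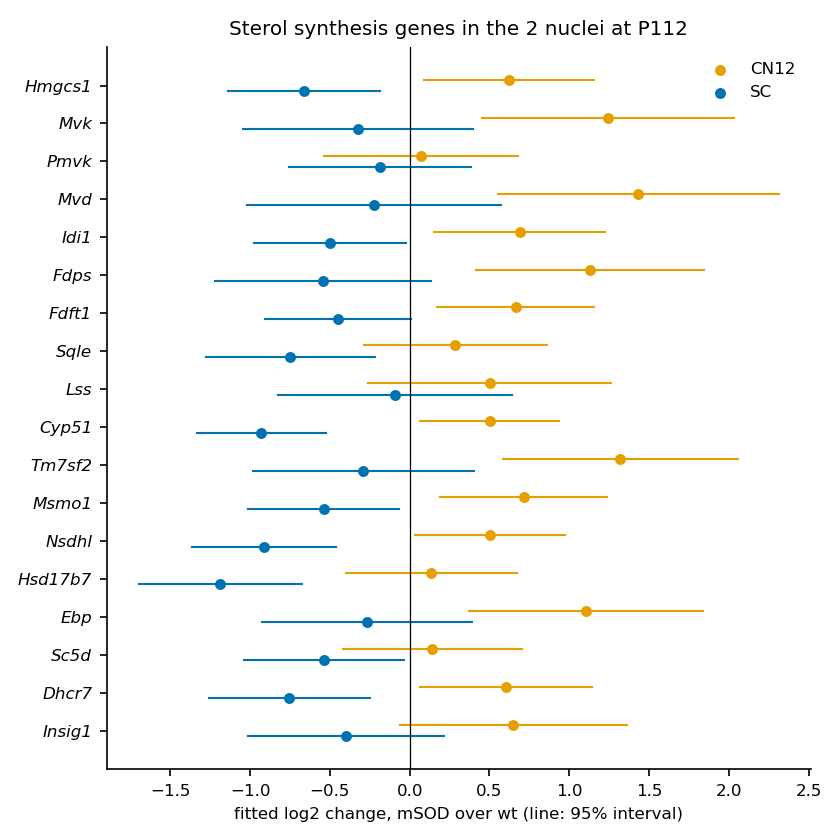
Fitted log2 change, mSOD over wt at P112, of 18 of the 21 sterol synthesis and uptake genes in CN12 (orange) and SC (blue), with 95% intervals, in pathway order from the top. All 18 CN12 points lie above 0 and all 18 SC points below it.

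A few genes of the integrated stress response rose in SC. Ddit3, the pro-apoptotic transcription factor CHOP, read 14.8, 21.8, 13.3, 18 and 18.6 CPM in SC wt and 129, 49.6 and 33.6 CPM in SC mSOD, and 17.9, 28.5 and 18 CPM in CN12 wt and 25.9, 17.6 and 20.2 CPM in CN12 mSOD. The SC change was 1.90 ± 0.41 (adjusted p = 0.0149) and the CN12 change 0.15 ± 0.47 (SE). Psat1, an aminotransferase of serine synthesis and a known ATF4 target, read 30.3, 28.1, 12.4, 14.2 and 25.1 CPM in SC wt and 114, 77.2 and 41.7 CPM in SC mSOD (1.62 ± 0.38, adjusted p = 0.0262) and 30.1, 21.5 and 24.3 against 24.2, 20 and 23.8 CPM in CN12. Atf4 itself changed in SC by 1.02 ± 0.24 (adjusted p = 0.033) and in CN12 by 0.63 ± 0.28 (SE), and passed for the mean effect (0.82 ± 0.19, adjusted p = 0.026). The difference in Ddit3 was -1.74 ± 0.62 (SE) with a 95% interval of -2.99 to -0.49, and that in Psat1 -1.69 ± 0.57 (SE), and neither passed over all genes (adjusted p = 0.548 and 0.48).

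Of the 23 stress response genes tested, 3 were called higher in SC (0.195% of all genes), namely Atf4, Ddit3 and Psat1, and 0 in CN12. At an unadjusted p under 0.05, 9 were higher in SC, against 4.79% of all genes, and 2 in CN12, against 2.25%. The list median was 0.97 in SC and 0.17 in CN12. For the difference, 5 had an unadjusted p under 0.05 in the direction of a larger SC effect (3.22% of all genes) and none was called. A second list of 17 amino acid and tRNA genes was drawn up after values were seen. Of its 16 tested members 10 were higher in SC at an unadjusted p under 0.05 (4.79% of all genes), 3 of them called (0.195%). In CN12 0 were higher at that unadjusted level (2.25% of all genes).

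Fgf21, a stress hormone under ATF4 control, was at 0 counts in all 6 CN12 libraries, so CN12 gives no ratio for it. In SC it read 0, 0.236, 0, 0.929 and 1.39 CPM in SC wt and 56.9, 17.6 and 7.4 CPM in SC mSOD (5.68 ± 1.03, adjusted p = 0.00437 by edgeR, with an adjusted p of 0.206 by DESeq2). Slc7a3, a cationic amino acid transporter, read 10.9, 3.48 and 5.38 CPM in SC mSOD over 2 counts in all SC controls, a ratio of 45 (95% counting interval 12 to 379). SC mSOD replicate 1 was the highest SC library in Ddit3, Psat1, Fgf21, Slc7a3 and Atf4. Phgdh, the first enzyme of serine synthesis, ran from 63 CPM in that library to 1.68 in replicate 3 and was not called (adjusted p = 0.0804). The SC call of Ddit3 was lost without SC mSOD replicate 1 or SC wt replicates 1 or 2 (adjusted p up to 0.272), that of Psat1 without SC mSOD replicates 1 or 3 or SC wt replicates 2, 3 or 4 (up to 0.176), that of Fgf21 without SC mSOD replicate 1 or SC wt replicate 2 (up to 0.183) and that of Atf4 without CN12 mSOD replicates 1, 2 or 3, SC mSOD replicates 1 or 3 or SC wt replicates 1, 2, 3 or 4 (up to 0.312). The mean call of Atf4 was lost without CN12 mSOD replicates 1 or 2, CN12 wt replicates 1 or 3, SC mSOD replicate 1 or SC wt replicates 1 or 2. Averaged over the 23 listed genes, log2 CPM was 5.25, 4.33 and 3.57 in SC mSOD and 3.39 to 3.84 in SC wt, so that replicate 3 lay within the controls. Of 15 endoplasmic reticulum chaperones 0 were called in either nucleus by edgeR, where 0.195% of all genes were called higher in SC and 0.0703% in CN12. At an unadjusted p under 0.05, 0 were higher in SC (4.79% of all genes) and 1 in CN12 (2.25%), so at these shares nothing is read from the counts. Their median log2 changes were 0.03 in SC and 0.02 in CN12. Phgdh and Slc7a3 were named after their values were seen.

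Across the lists of genes the 2 nuclei can be read side by side. Microglial genes had the highest SC median of the lists, 1.95, with 5 of 13 higher at an unadjusted p under 0.05 (4.79% of all genes). Of them Apoe was called (1.47 ± 0.31, adjusted p = 0.0125), where 0.195% of all genes were called higher. Its SC libraries overlapped, and the call was lost without SC mSOD replicates 1 or 3 (adjusted p up to 0.618). In CN12 the microglial median was 0.61 with 1 of 13 (2.25% of all genes). The levels behind this were low: C1qc read 1.55, 1.18, 0.888, 0 and 0.464 CPM in SC wt and 7, 4.64 and 9.76 CPM in SC mSOD. Apoe is also made by astrocytes, whose 12 markers had medians of -0.27 in CN12 and -0.18 in SC. One of them, Gfap, the filament protein of reactive astrocytes, read 1.24, 1.66, 1.78, 24.1 and 15.3 CPM in SC wt and 49.9, 29.9 and 47.8 CPM in SC mSOD, without overlap. Its SC log2 change of 2.69 ± 0.78 (adjusted p = 0.123) did not pass, and in CN12 it held 0 to 2 counts a library. Its part in the Apoe value was not tested. Neurofilament and tubulin genes had a median of 0.36 in CN12, with 5 of 14 higher at an unadjusted p under 0.05 (2.25% of all genes), and -0.0022 in SC, with 1 higher (Ina, called, and of opposite sign within P10814) and 2 lower (Nefl and Nefm). Voltage-gated channel genes were above 0 in 2 of 18 in CN12 (47.9% of all genes) and in 9 of 18 in SC (48.6% of all genes), so the SC count was near that of all genes, and none was called. Transmitter receptor genes were above 0 in 2 of 17 in CN12 and in 4 of 17 in SC, also with none called.

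**Figure D5:**
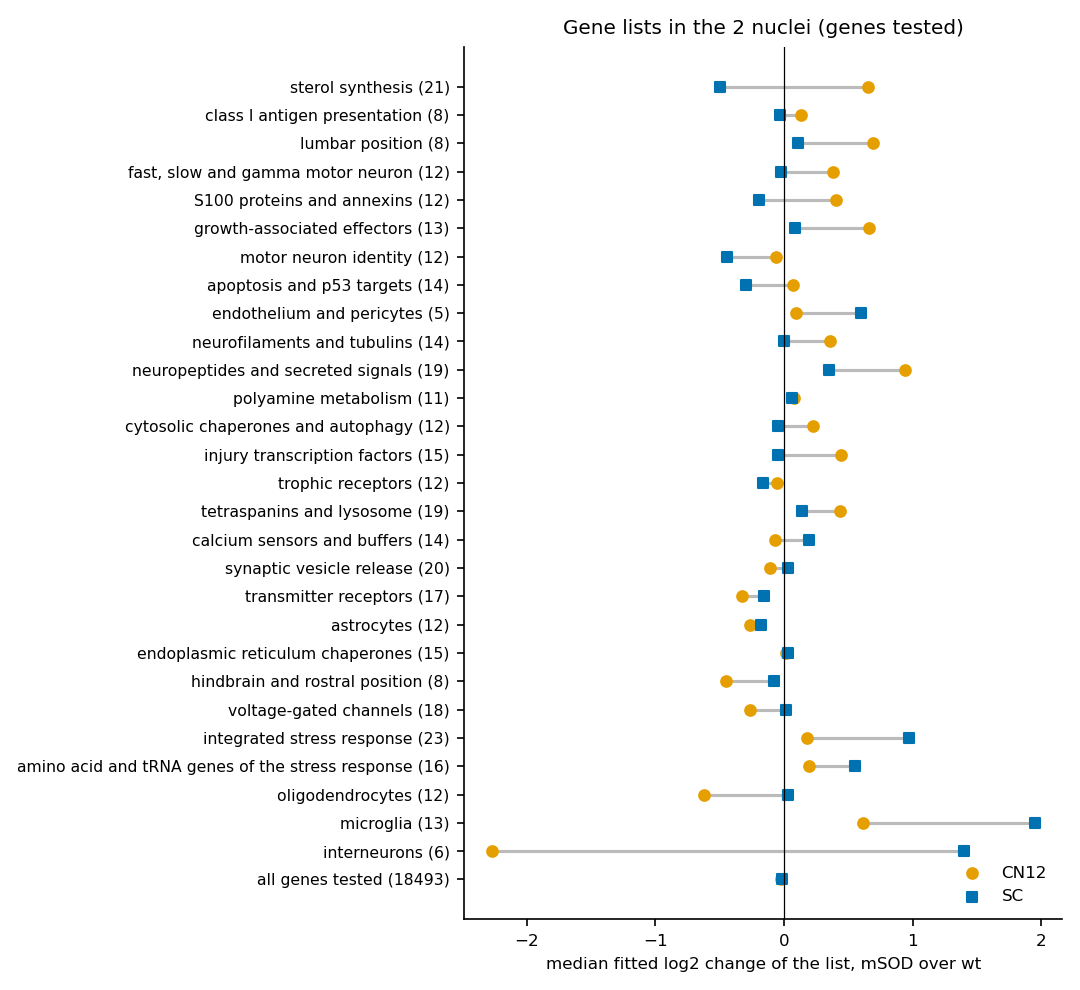
Median fitted log2 change, mSOD over wt at P112, of each gene list in CN12 (circles) and SC (squares), with the number of genes tested in brackets; lists are ordered by their median difference, and all genes tested stand at the bottom. Sterol synthesis genes lie at 0.65 in CN12 and -0.50 in SC, and interneuron, microglial and stress response genes lie higher in SC.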

How the data were processed

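Counts per gene for the 54 libraries, and RPKM values of the same libraries, were deposited by the authors. Per the submitters' processing notes, STAR 2.7.0e and the builds mm39 and GRCm39 were used, and the counting tool and its settings are not given in the sources used here. RPKM values were read per group and are not printed. All 54 libraries were fitted together in edgeR 4.0.16 (R 4.3.3) with 16 groups of nucleus, age and genotype and the sequencing project as a covariate, TMM scaling, filterByExpr, robust quasi-likelihood F tests and Benjamini-Hochberg adjustment over all 18493 mouse genes, with a threshold of 0.05. Contrasts were each nucleus, their difference (CN12 minus SC) and their mean. CPM uses the TMM-scaled library size. Genes were named where called for the difference, in both nuclei, by smallest p for the mean without overlap or in 1 nucleus, and from 26 lists. Members, lists and rule were chosen with earlier results of these data known, and 2 lists were added later. Alternatives included DESeq2 1.42.0, no filter on low counts, other sets of libraries and leaving out each library. Some genes of the lists and calls are not reported here. Copies were found with blastn 2.17.0, and the fits were tested on simulated data. The libraries are not stranded, so a gene and its antisense partner cannot be told apart.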

Additional observations from a re-analysis of the deposited data

Results flagged for a closer look

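Single SC controls stood apart from the other 4 in 5 of 47 genes checked. Chance gives about 1 in 20 for continuous values, a rate that does not hold for genes of a few counts, so no excess over chance is shown. SC wt replicate 1 had 162.1 CPM of Slc17a6 against 0 to 20.81 in the others, 5.261 CPM of Wipf3 against 0 to 0.4731, and 0.9283 CPM of Cd44 against 0. SC wt replicate 3 had 0.8883 CPM of Sprr1a, and SC wt replicate 2 had 0.4731 CPM of Slc7a3, with the other controls at 0. The values of Sprr1a, Cd44 and Slc7a3 rest on 1, 3 and 2 counts, and with the other 4 controls at 0 any count there would stand apart.

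The effects in the 2 nuclei differed by the test of the difference in 9 genes, of which 8 are given here. The CN12 log2 change minus the SC log2 change was 1.798 for Hpcal1, 1.977 for Rab3b, 1.431 for Cyp51, 2.087 for Cd24a and 3.034 for Chodl. It was -3.777 for Rgs10, -8.441 for Wipf3 and -2.245 for Usp11. Wipf3 was at 0 in all CN12 mSOD libraries, so its fitted value depends on the prior count and is no measure of size.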

How the results depend on the processing

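Without the filter on low counts the calls numbered 83 in CN12, 265 in SC, 103 for the difference, 187 for the mean and 28 in both nuclei, and 174 SC genes and 57 CN12 genes kept their direction in the other nucleus, against 56 and 13 with the filter. DESeq2, with genes whose fit reached its iteration limit left out, gave 23 calls in CN12, 196 in SC, 25 for the difference and 101 for the mean, with 134 SC genes in the same direction. With only the 14 libraries there were 1 for the difference and 4 in both. Without the P11355 libraries there were 0 for the difference. Within P10814 there were 30 in CN12, 0 for the difference, 126 for the mean, 18 in both, and 29 CN12 genes in the same direction. Leaving out each library gave 4 to 18 calls in CN12, 20 to 174 in SC, 0 to 41 for the difference, 24 to 75 for the mean and 3 to 10 in both, with 16 to 105 SC genes and 4 to 16 CN12 genes in the same direction. The cause was not tested. Ina in SC reversed to -0.1848 within P10814 (adjusted p = 0.963 by edgeR). Over single genes and alternatives, 285 results fell below the threshold and 172 rose past it, while 10636 did not cross it. No paired analysis was possible because the labels carry no replicate numbers. Depth of 1071477 counts in the shallowest library limits genes of a few CPM.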

Other observations

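The 9 genes with unequal effects can also be read as levels between nuclei. In wt libraries the 2 nuclei did not overlap in 6 of the 9 (10.3% of all genes). The wt gap is part of the contrast that called these genes, so nothing is read from that share. Mean log2 CPM in SC minus CN12 went from 1.85 in wt to -0.03 in mSOD for Hpcal1, from 1.12 to -2.14 for Chodl, from -2.89 to 1.26 for Rgs10 and from -2.03 to 0.12 for Usp11.

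Plpp4, a lipid phosphate phosphatase, was lower in mSOD in both nuclei. It read 31.5, 31.8 and 31.2 CPM in CN12 wt and 22.5, 15.7 and 5.11 CPM in CN12 mSOD. In SC it read 21.97, 13.01, 15.1, 23.84 and 13.47 CPM in wt and 2.24, 6.96 and 1.01 CPM in mSOD. No mSOD library overlapped the controls of its nucleus. Of all genes, 0.211% were lower without overlap in both nuclei, and 0.2% did not overlap in opposite directions. Nothing is therefore read from the lack of overlap.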
